A study of Rattus norvegicus with 56 samples.

Results

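The Hox cluster genes were followed in kidney tubules of rats with an obstructed or a sham-operated ureter. Members were all genes whose symbol was Hox, a cluster letter from a to d and a number. This gave 44 loci with 39 different symbols, of 32883 genes in the tables. The tubules came from male Sprague-Dawley rats weighing 120 to 160 g and were microdissected as either thick ascending limb from the cortex (cTAL) or collecting duct from the cortex (CCD). In rats with unilateral ureteral obstruction (UUO) the left ureter was tied off with silk, and in sham rats it was exposed and not tied. Tubules were taken 30 min or 3 h after surgery. The 8 groups were CCD UUO, CCD sham, cTAL UUO and cTAL sham at each time, with 4 numbered replicates in each. A CCD replicate had 2 libraries and a cTAL replicate had 1, which made 48 libraries. The age of the rats is not given in the sources used here.

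Hox genes encode homeodomain transcription factors that give cells their position along the body axis. They lie in 4 clusters (HoxA to HoxD), and genes of the same paralog number in different clusters descend from a common ancestor. Within a cluster the low numbers are expressed early and towards the head, and the high numbers later and towards the tail. The collecting duct grows from the ureteric bud, an outgrowth of the nephric duct, while the thick ascending limb forms from nephron progenitors of the metanephric mesenchyme. In mouse embryos the paralog group 11 genes are needed for the mesenchyme to induce the bud, and the Hoxb7 promoter is used to drive transgenes in the bud and its descendants.

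Levels are given as TPM, the share of a gene's transcripts among all transcripts of a library, which are scaled per transcript length, so that levels of different genes can be set side by side. The value of a CCD replicate is the mean TPM of its 2 libraries. A member is called expressed where its mean over the 4 sham replicates was at least 1 TPM. TPM keep no record of sequencing depth, so no detection limit is given. A 30 min library held 8744 to 11916 genes with 1 TPM or more, and a 3 h library 9585 to 10750. The segment labels fitted their defining markers. The water channel Aqp2 averaged 4887 TPM in sham CCD and 0.68 TPM in sham cTAL at 30 min, and the thick limb protein Umod averaged 129 TPM in sham CCD and 52190 TPM in sham cTAL. At 3 h some libraries held transcripts of the other segment. Umod passed 5000 TPM in 3 CCD libraries, 1 of UUO replicate 4 and 1 each of sham replicates 1 and 3, and Aqp2 reached 361 TPM in cTAL sham replicate 1. The 3 h levels and tests that these 3 CCD libraries touch most are also given without them. The separate tables for 30 min and 3 h were never tested against each other.

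Of the 44 loci, 17 were expressed in at least 1 sham group and 26 stayed under 1 TPM in all 8 groups. The remaining locus, Hoxc9, reached 1 TPM only in cTAL UUO at 3 h, with 0.66, 0.33, 1.85 and 1.77 TPM against 0.63, 1.04, 0.94 and 0.18 TPM in cTAL sham. No gene of paralog groups 1, 11, 12 or 13 was expressed. Thus the group 11 genes of embryonic kidney induction averaged under 1 TPM in both segments. Their highest group mean was 0.97 TPM for one Hoxa11 locus, which was also the highest among all 26. At 30 min that locus averaged 0.835 TPM in cTAL sham and 0.18 TPM in CCD sham. With no filter on low values it was called lower in CCD at 30 min (log2 difference -0.64) and 3 h (-0.83). Hoxa13 and Hoxc13 were at 0 in all 48 libraries. The highest value of any of these 26 loci in a single library was 1.54 TPM.

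Sham CCD and sham cTAL expressed different sets of Hox members. At 30 min each segment expressed 11 members, of which 6 were shared, 5 were expressed in CCD only and 5 in cTAL only. The 6 shared members were Hoxb2, Hoxb6, Hoxb7, Hoxd8, Hoxd9 and Hoxd10. At 3 h CCD expressed 10 members and cTAL 14, with 9 shared, 1 (Hoxd3) in CCD only and 5 in cTAL only. These counts use the level of a single locus. Hoxa7 counted as cTAL only at 30 min, with 0.91 TPM in CCD sham, but has 2 loci with the same values. Hoxa9 counted as cTAL only at both times, with 0.40 and 0.89 TPM in CCD sham, but has 3 such loci. Summed over loci, these CCD means would pass 1 TPM. No HoxC gene reached 1 TPM in sham CCD at either time. HoxB genes supplied 82.6% of the summed Hox TPM in sham CCD and 37.0% in sham cTAL at 30 min, and 91.3% and 62.7% at 3 h. HoxD genes supplied 16.2% in sham CCD and 43.9% in sham cTAL at 30 min, and 7.55% and 22.5% at 3 h.

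**Figure D1:**
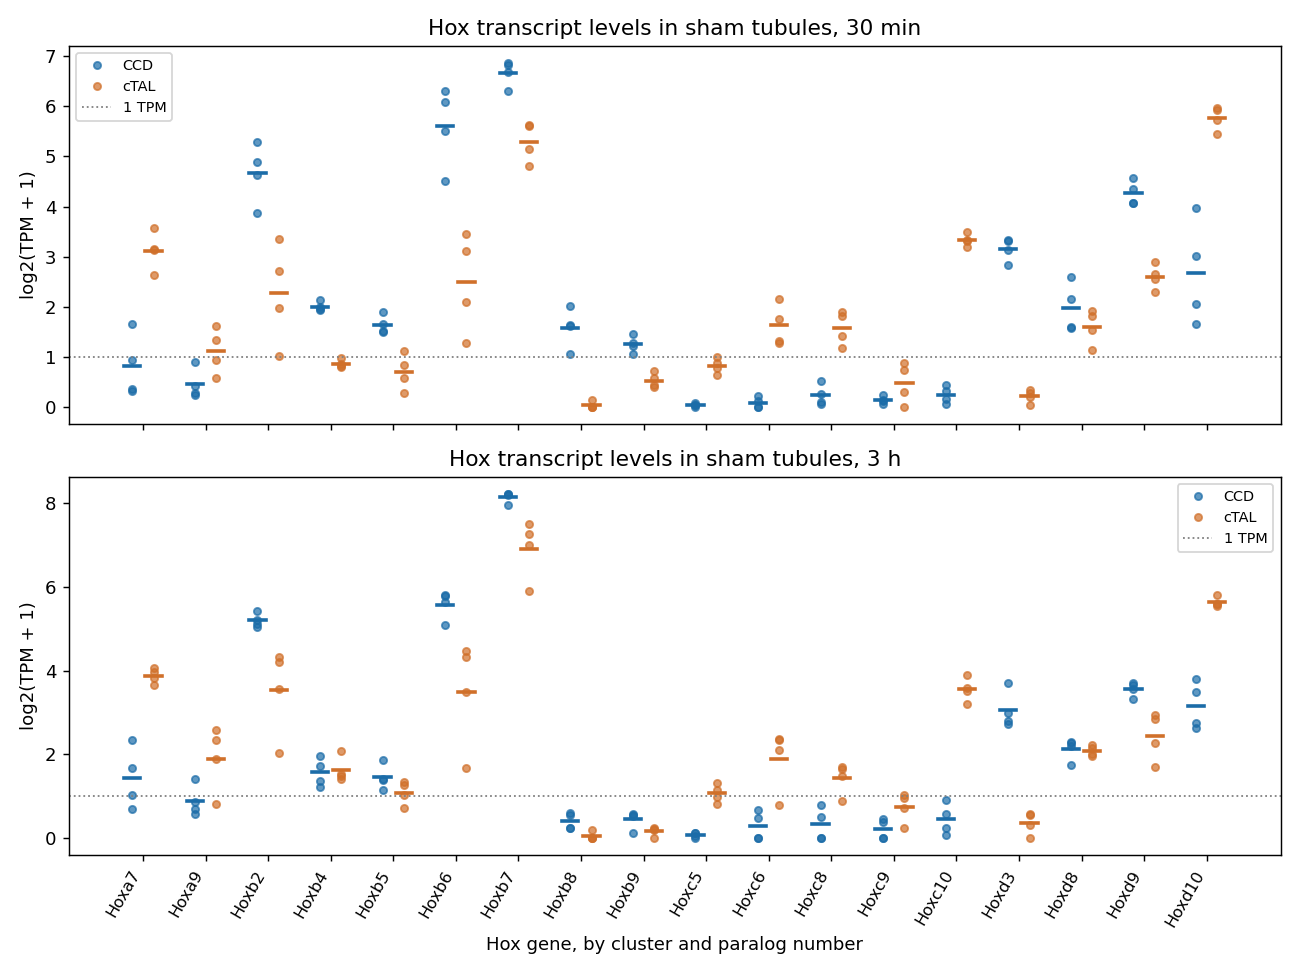
Hox transcript levels in sham tubules at 30 min (upper panel) and 3 h (lower panel), on a log2(TPM + 1) axis; each point is a replicate, each bar the mean of the 4 points, and the dotted line marks 1 TPM. Hoxb2, Hoxb6, Hoxb7, Hoxd3 and Hoxd9 sit higher in CCD, while Hoxa7, Hoxc10 and Hoxd10 sit higher in cTAL.

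The HoxD cluster held members of both patterns, among them Hoxd9 and Hoxd10, which are next to each other in the rat RefSeq annotation. Hoxd9 was higher in CCD and Hoxd10 higher in cTAL. Hoxd3, further along the cluster, was all but restricted to CCD. The 250 bases upstream of the RefSeq transcription start of these genes are shown because Hoxd9 and Hoxd10 are neighbours of opposite preference and Hoxd3 was the HoxD gene most restricted to CCD. All are on the plus strand of build GRCr8, with CpG dinucleotides in capitals, for Hoxd10 at chr3:80001697-80001946, for Hoxd9 at chr3:80007756-80008005 and for Hoxd3 at chr3:80045876-80046125.
Hoxd10: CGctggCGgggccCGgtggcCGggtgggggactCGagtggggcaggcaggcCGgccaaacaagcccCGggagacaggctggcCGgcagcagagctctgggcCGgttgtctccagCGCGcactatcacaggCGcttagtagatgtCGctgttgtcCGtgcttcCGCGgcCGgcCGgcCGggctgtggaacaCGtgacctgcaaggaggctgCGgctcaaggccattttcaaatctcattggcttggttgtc
Hoxd9: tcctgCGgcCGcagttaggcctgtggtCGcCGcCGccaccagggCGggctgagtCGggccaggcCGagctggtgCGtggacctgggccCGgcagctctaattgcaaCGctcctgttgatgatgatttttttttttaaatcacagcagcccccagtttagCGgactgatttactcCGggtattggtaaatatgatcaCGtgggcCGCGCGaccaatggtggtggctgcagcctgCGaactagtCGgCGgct
Hoxd3: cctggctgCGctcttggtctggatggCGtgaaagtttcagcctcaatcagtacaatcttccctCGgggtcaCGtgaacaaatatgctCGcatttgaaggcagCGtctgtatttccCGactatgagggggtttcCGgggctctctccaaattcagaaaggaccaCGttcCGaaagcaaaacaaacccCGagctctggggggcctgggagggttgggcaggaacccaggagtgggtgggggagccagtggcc

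The 3 windows held 21 CpG for Hoxd10, 20 for Hoxd9 and 11 for Hoxd3, against a median of 5 over 33469 rat RefSeq promoter windows of the same length. Their G and C content was 67.2%, 60% and 57.2% in that order, against a median of 51.2%. Searched on both strands were 3 motifs: TGATTNAT, bound by Hox proteins with Pbx partners, TTTATNG, bound by posterior Hox and CDX proteins, and TATAAA, the TATA box. TTTATNG read on the other strand shares letters with TATAAA, so a stretch can hold both. They occur in 2.82%, 10.1% and 12.9% of all windows, in that order, and none of the 3 genes had any of them in its window. Promoter windows were found for 20 of the 39 symbols and for 6 of the 17 expressed members.

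The HoxB genes made up the main CCD signature. Hoxb7, the most abundant Hox transcript in CCD, had 78.4, 115, 112 and 102 TPM in CCD sham replicates 1 to 4 and 34.5, 26.8, 48.0 and 48.1 TPM in cTAL sham replicates 1 to 4 at 30 min. At 3 h Hoxb7 had 295, 298, 247 and 300 TPM in CCD sham, against 180, 154, 128 and 58.9 TPM in cTAL sham. CCD lay above cTAL in all 4 numbers at both times, and the segments did not overlap. Hoxb7 was therefore not a marker of CCD alone: its cTAL mean was 38.6% of its CCD mean at 30 min and 45.7% at 3 h, whereas the cTAL mean of Aqp2 was 0.0139% and 0.896% of its CCD mean. In cTAL sham replicate 2 at 3 h Aqp2 stood at 0.34 TPM and Hoxb7 at 154 TPM. The log2 difference of Hoxb7, CCD minus cTAL, was 1.37 (SE 0.17, limma with Benjamini-Hochberg adjusted p = 0.000612) at 30 min and 1.23 (SE 0.26, adjusted p = 0.0123) at 3 h.

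Hoxb6 and Hoxb2 followed Hoxb7 in level and leaned further towards CCD. Hoxb6 averaged 52.8 ± 25 TPM in CCD sham and 5.57 ± 3.89 TPM in cTAL sham at 30 min (SD, n = 4 each). At 3 h its averages were 47.6 ± 9.99 and 13.2 ± 8.73 TPM in CCD and cTAL sham. Hoxb2, a gene of hindbrain patterning in the mouse, averaged 25.9 ± 10.1 TPM in CCD sham and 4.69 ± 3.54 TPM in cTAL sham at 30 min, and 35.9 ± 4.19 and 12.6 ± 7.32 TPM at 3 h. The replicate ranges of Hoxb6 and Hoxb2 overlapped within CCD sham. Within a replicate Hoxb6 was above Hoxb2 throughout at 30 min. At 3 h this held except in replicate 3, with 33.2 TPM of Hoxb6 and 33.8 TPM of Hoxb2. The log2 differences were 3.02 (SE 0.28) and 2.04 (SE 0.45) for Hoxb6 at 30 min and 3 h, and 2.35 (SE 0.29) and 1.63 (SE 0.34) for Hoxb2. Reads of Hoxb6 and Hoxb5 cannot be told apart from those of Hoxb5os, an RNA that overlaps both in the RefSeq annotation, because these libraries are not stated to keep strand.

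The other HoxB members were low. Hoxb4, known from blood stem cells, averaged 3.02 ± 0.24 TPM in CCD sham and 0.82 ± 0.11 TPM in cTAL sham at 30 min, but 2.01 ± 0.69 and 2.14 ± 0.75 TPM at 3 h. Hoxb5 averaged 2.15 and 0.66 TPM in CCD and cTAL sham at 30 min, and 1.78 and 1.14 TPM at 3 h. Hoxb8 averaged 2.08 TPM in CCD sham and 0.028 TPM in cTAL sham at 30 min, and 0.33 and 0.035 TPM at 3 h. Hoxb9 averaged 1.40 and 0.45 TPM at 30 min, and 0.37 and 0.12 TPM at 3 h. All 4 were called higher in CCD at 30 min, but from CCD library 2 alone Hoxb8 and Hoxb9 were too low to be tested. At 3 h Hoxb4 and Hoxb5 were not called (adjusted p = 0.862 and 0.225), and Hoxb8 and Hoxb9 were too low to be tested.

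Within HoxD, Hoxd9 averaged 18.5 ± 3.34 TPM in CCD sham and 5.14 ± 1.06 TPM in cTAL sham at 30 min, and 10.8 ± 1.35 and 4.73 ± 2.08 TPM at 3 h. Hoxd10, its neighbour, had 14.7, 2.16, 7.09 and 3.15 TPM in CCD sham and 42.6, 51.6, 59.5 and 61.3 TPM in cTAL sham at 30 min. At 3 h Hoxd10 had 12.8, 5.15, 10.2 and 5.75 TPM in CCD sham and 47.5, 47.3, 55.2 and 45.6 TPM in cTAL sham. Hoxd10 had the highest mean of the Hox transcripts in cTAL sham at 30 min. Its range overlapped that of Hoxb7 there, but Hoxd10 was the higher within every replicate. At 3 h Hoxd10 followed Hoxb7 in cTAL sham without overlap. Its log2 difference was -3.12 (SE 0.41, adjusted p = 0.000696) at 30 min and -2.64 (SE 0.20, adjusted p = 0.000286) at 3 h by limma. For Hoxd9 the difference was 1.54 (SE 0.16, adjusted p = 0.000269) and 1.10 (SE 0.28, adjusted p = 0.0227). At 30 min it was 2.14 from CCD library 1 alone and 0.94 from library 2 alone, called with each. Of 16 alternatives the 3 h call of Hoxd9 was lost in 5: without sham replicate 3 (adjusted p = 0.0581), from CCD library 2 alone (log2 difference 0.89, adjusted p = 0.0670), with no filter (adjusted p = 0.0502), and under median-of-ratios (0.83, adjusted p = 0.0586) and quantile scaling (0.74, adjusted p = 0.0914). Without the 3 CCD libraries rich in Umod, Hoxd10 averaged 4.92 ± 1.66 TPM in CCD sham at 3 h, and its log2 difference was -3.13, while that of Hoxd9 was 1.03 (both called).

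Hoxd3, a low-numbered HoxD gene, averaged 7.97 ± 1.34 TPM in CCD sham and 0.17 ± 0.10 TPM in cTAL sham at 30 min, and 7.60 ± 2.97 and 0.30 ± 0.22 TPM at 3 h. CCD held 97.9% of the sum of both means at 30 min and 96.3% at 3 h. Hoxd8 was not called at either time. It averaged 3.13 ± 1.47 TPM in CCD sham and 2.09 ± 0.70 TPM in cTAL sham at 30 min, and 3.40 ± 0.71 and 3.26 ± 0.38 TPM at 3 h. Its replicates overlapped between segments at both times, and its log2 difference was 0.37 (SE 0.17, adjusted p = 0.105) and 0.03 (SE 0.21, adjusted p = 0.925), which turned to -0.22 at 3 h under median-of-ratios rescaling.

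The HoxA and HoxC members leaned to cTAL. Hoxc10, known from limb and lumbar motor neuron patterning in the mouse, had 8.20, 9.13, 8.93 and 10.3 TPM in cTAL sham at 30 min while CCD sham stayed between 0.05 and 0.36 TPM. At 3 h CCD sham lay between 0.04 and 0.88 TPM and cTAL sham between 8.26 and 13.8 TPM. Hoxc6 averaged 0.063 TPM in CCD sham and 2.19 TPM in cTAL sham at 30 min, and 0.25 and 3.04 TPM at 3 h. Hoxc8 averaged 0.19 and 2.03 TPM, and 0.29 and 1.75 TPM. Hoxc5, whose RefSeq span overlaps that of Hoxc6, passed 1 TPM in 1 sham group, cTAL at 3 h: its means at that time were 0.051 TPM in CCD sham and 1.11 TPM in cTAL sham. The log2 difference of Hoxc10 was -3.09 at 30 min and -3.12 at 3 h. It entered the test through its cTAL level alone, so no p is given for it.

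Hoxa7 averaged 0.91 ± 0.90 TPM in CCD sham and 7.94 ± 2.37 TPM in cTAL sham at 30 min, and 1.96 ± 1.53 and 13.8 ± 1.73 TPM at 3 h. Hoxa9, known from blood progenitors, averaged 0.40 ± 0.32 and 1.26 ± 0.69 TPM in CCD and cTAL sham at 30 min, and 0.89 ± 0.53 and 3.09 ± 1.82 TPM at 3 h. The levels of both are uncertain. The annotation used for the tables holds several copies of HoxA loci: Hoxa7 had 2 loci and Hoxa9 had 3 loci with the same values, so a printed level is that of 1 copy. Summed over copies, the 3 h log2 difference became -2.84 for Hoxa7 and -1.74 for Hoxa9, against -2.53 and -1.15 for a copy. The call of Hoxa9 at 3 h (adjusted p = 0.0433) was kept in 6 of 12 alternatives. It was lost without sham replicate 2 (log2 difference -0.86, adjusted p = 0.147), without sham replicate 3 (-0.95, adjusted p = 0.150), from CCD library 1 alone (-0.54, adjusted p = 0.360), with no filter (adjusted p = 0.0953), with the mean of TPM (-1.01, adjusted p = 0.0744) and with no trend (adjusted p = 0.0544). Hoxa9 averaged 1.69 TPM in library 1 and 0.09 TPM in library 2 of CCD sham at 3 h. Without the 3 libraries rich in Umod, CCD sham at 3 h averaged 1.08 ± 0.48 TPM of Hoxa7 (log2 difference -2.85, called) and 0.36 ± 0.36 TPM of Hoxa9, which then no longer passed the filter.

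Markers of some cell types outside the tubule were also lower in sham CCD than in sham cTAL. Of all genes tested, 13.2% were called lower in CCD at 30 min and 10.4% at 3 h. Macrophage markers were called lower in CCD in 5 of 5 tested at 30 min and 4 of 4 at 3 h. Their sums were 18.8 to 39.7 TPM in CCD sham and 64.5 to 229 TPM in cTAL sham at 30 min, and 18.5 to 50.6 TPM and 118 to 298 TPM at 3 h. Endothelial markers were called lower in 3 of 4 and 2 of 3 tested, with sums of 12.0 to 43.0 TPM in CCD sham and 45.4 to 105 TPM in cTAL sham at 30 min. At 3 h the endothelial sums overlapped, with 20.7 to 112 TPM in CCD sham and 49.0 to 311 TPM in cTAL sham. The 1 smooth muscle marker and the 1 urothelial marker tested were each called lower at both times, and the urothelial marker Upk3a was at 0 in every sham library. Fibroblast markers were called lower in 0 of 1 tested at 30 min and 1 of 2 at 3 h. None of the 4 red cell loci tested was called at either time. Their log2 differences were all above 0 at 30 min and all below 0 at 3 h. The part of these markers in the levels of the HoxA and HoxC genes was not tested.

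Genes of the same paralog number were not tied to the same segment. In group 8, Hoxb8 was expressed in CCD at 30 min, where library 1 alone carried it above 1 TPM, Hoxc8 in cTAL and Hoxd8 in both. In group 9, Hoxb9 and Hoxd9 were higher in CCD at 30 min and Hoxa9 had the higher mean in cTAL. In group 10, Hoxc10 and Hoxd10 were both higher in cTAL, and Hoxa10 was not expressed. In group 7, Hoxb7 was higher in CCD and Hoxa7 in cTAL.

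Across all members the test between segments was paired by replicate number and covered every gene that reached 1 TPM in 4 or more of 8 replicates. At 30 min 15 members passed that filter, with 9 called higher in CCD, 5 called lower, and Hoxd8 not called. Of the 11648 genes tested, 54.9% were called (41.7% higher and 13.2% lower in CCD). Of the 15, 6 had 1 TPM in at least 3 replicates of both segments. The other 9 passed through the segment where they were high, so that they had to differ, and the count of calls is a description. At 3 h 12 members passed, of which 5 were called higher (Hoxb2, Hoxb6, Hoxb7, Hoxd3 and Hoxd9), 4 lower (Hoxa7, Hoxa9, Hoxc10 and Hoxd10) and 3 not called (Hoxb4, Hoxb5 and Hoxd8). Of these 12, Hoxd3 passed through CCD alone and Hoxa9 and Hoxc10 through cTAL alone, so these 3 calls too are a description. Over 10521 genes, 38.2% were called, with 27.7% higher and 10.4% lower. Replicates of the segments did not overlap in 9 members higher and 5 lower in CCD at 30 min, beside 36.6% and 10.4% of all genes, and in 5 higher and 3 lower at 3 h, beside 30.5% and 9.31%. The log2 difference had a median over all genes of 0.30 at both times, and of -0.0027 at 30 min and 0.021 at 3 h after median-of-ratios rescaling, under which no called member turned its sign. Without the 3 CCD libraries rich in Umod, 5 members were called higher and 3 lower at 3 h (Hoxb7 1.29, Hoxb6 1.84, Hoxb2 1.45).

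**Figure D2:**
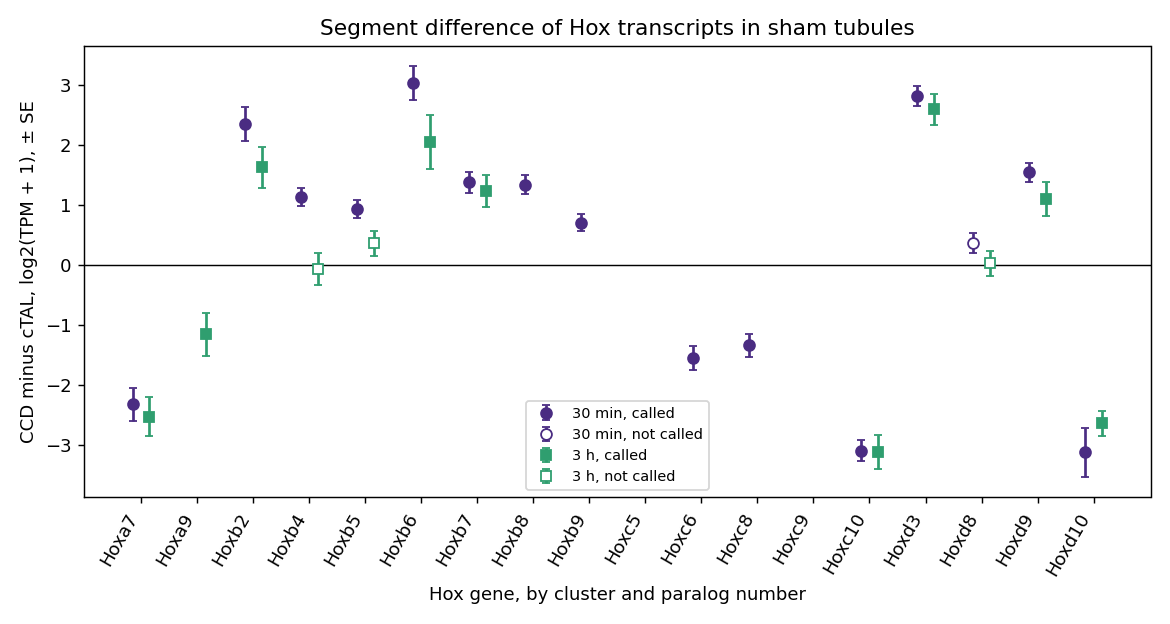
Log2(TPM + 1) difference between sham CCD and sham cTAL for each Hox member tested, with its standard error, at 30 min (circles) and 3 h (squares); filled symbols passed an adjusted p of 0.05. Values above 0 are higher in CCD, and the neighbours Hoxd9 and Hoxd10 lie on opposite sides of 0 at both times.

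Thick limb transcripts were present in the CCD samples, and some of the cTAL-type Hox genes were highest in the same replicates. The summed level of the 6 thick limb markers, all detected in CCD, was 4045 and 4486 TPM in CCD sham replicates 1 and 3 at 3 h, and 280 and 174 TPM in replicates 2 and 4. Hoxd10 was 12.8 and 10.2 TPM in replicates 1 and 3, and 5.15 and 5.75 TPM in replicates 2 and 4. Hoxc10 was 0.88 and 0.49 TPM in replicates 1 and 3, and 0.04 and 0.18 TPM in replicates 2 and 4. Hoxa7 was 4.03 and 2.17 TPM in replicates 1 and 3, and 1.03 and 0.605 TPM in replicates 2 and 4. Hoxc6 (0.59 and 0.395 TPM) and Hoxc8 (0.735 and 0.405 TPM) were detected in replicates 1 and 3 and at 0 in replicates 2 and 4. Hoxa9 did not follow that split, with 1.66 and 0.61 TPM in replicates 1 and 3 and 0.49 and 0.80 TPM in replicates 2 and 4. Hoxc5 did not either, with 0.09 TPM in replicates 1 and 2 and 0.025 TPM in replicate 3. At 30 min CCD sham replicate 1 had the highest sum (559 TPM, the others 128 to 171 TPM). The same replicate had the highest sum of distal convoluted and connecting tubule markers (5206 TPM, the others 296 to 716 TPM). Hoxd10, Hoxa7, Hoxa9, Hoxc8 and Hoxc10 were highest in that replicate, while Hoxc5 and Hoxc6 were at 0 in it. As a share of its cTAL mean, the CCD mean of Umod was 0.247% at 30 min and 4.86% at 3 h, that of Hoxc10 2.12% and 3.64%, and that of Hoxd10 12.6% and 17.3%. CCD UUO replicate 4 at 3 h had its group's highest thick limb sum (9975 TPM), Hoxd10 (13.6 TPM) and Hoxc10 (1.515 TPM). Replicate 3 of that group, with the lowest sum (138 TPM), had 12.8 TPM of Hoxd10 and the highest Hoxa7 (6.46 TPM). In UUO replicate 4 Hoxd10 was 22.2 TPM in the library rich in Umod and 4.95 TPM in the other. For CCD sham replicate 1 at 3 h these values were 19.4 and 6.26 TPM. For sham replicate 3 they were 17.8 and 2.53 TPM. In CCD sham at 3 h the distal convoluted and connecting tubule sum was 525, 378, 511 and 957 TPM in replicates 1 to 4. The part of thick limb, distal convoluted or connecting tubule transcripts in the CCD levels of these Hox genes was not tested.

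Genes known to work with the Hox proteins or to mark the 2 lineages were counted by list. A list gene could pass the filter through the segment where it was high, so these counts are a description. Of the partner cofactors (Pbx, Meis and Pknox genes), 5 were tested at 30 min and 3 at 3 h, against the shares of all genes given above. Pbx3 was called higher in CCD both times, with 23.3 ± 5.15 TPM in CCD sham and 3.51 ± 0.43 TPM in cTAL sham at 30 min. Pknox2 was called lower in CCD at 30 min (log2 difference -2.20). Among the chromatin and signalling regulators of Hox clusters, none was called lower in CCD at either time, beside 13.2% and 10.4% of all genes. Called higher in CCD were 16 of 28 at 30 min, beside 41.7% of all genes, and 8 of 23 at 3 h, beside 27.7%. Named by smallest p, these were Wdr5 of the H3K4 methylation complex (1.19), the H3K27 demethylase Kdm6b (1.47), the insulator protein Ctcf (1.25) and Ring1 of Polycomb complex PRC1 (1.40) at 30 min. At 3 h they were Rnf2 (0.93), Ezh1 (1.18), Wdr5 (1.34) and Rara (1.39). The median of this list was 0.55 at 30 min and 0.53 at 3 h, against 0.30 for all genes.

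Among 12 genes that flank the clusters, sham CCD had 3 called higher and 3 called lower at 30 min, then 4 and 2 at 3 h. Of all genes, 41.7% were called higher and 13.2% lower at 30 min, and 27.7% and 10.4% at 3 h. The same shares stand beside the segment factors below. Snx10, on the HoxA side, averaged 106 ± 32.4 TPM in CCD sham and 3.70 ± 0.93 TPM in cTAL sham at 30 min. Mtx2, beside HoxD, was higher in CCD (log2 difference 1.55 and 1.15), while Skap1, beside HoxB (-1.95 and -2.01), and Skap2, beside HoxA (-1.06 and -1.03), were lower. Skap1 thus had the opposite direction to the HoxB genes it flanks, and Snx10 the opposite direction to Hoxa7. Of the ureteric and nephron segment factors, 15 were tested at 30 min, of which CCD had 9 called higher and 3 called lower, and 12 at 3 h, with 6 called higher and 1 called lower. Gata3, a factor of the nephric duct, had a log2 difference of 6.49 and 5.21, Gata2 5.34 and 4.87, Lhx1 4.03 and 3.37, and Pax8 1.56 and 1.55. Tfap2b, a factor of the distal nephron, was lower in CCD (-2.43 at 3 h). Of the genes of the Hox11 kidney programme, Six4 (-0.50) and Sall1 (-3.10) were tested at 30 min and both called lower in CCD. Sall1 was also lower at 3 h (-1.93). No gene of this list passed the filter within CCD. Both thus needed their cTAL level to enter the test, and their direction is a description. The call of Six4 was lost in 3 of the 4 fits that left out 1 replicate number.

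Obstruction was then compared with sham in each segment and at each time. In CCD at 3 h, 2 of the 11 members tested fell and none rose: Hoxb7 and Hoxd9. Hoxb7 had 157, 157, 151 and 136 TPM in CCD UUO, against 295, 298, 247 and 300 TPM in CCD sham. Its arms did not overlap, and even the lowest sham replicate stood well above the UUO replicates. The log2 change was -0.91 (SE 0.097, limma adjusted p = 0.00218), or 1.88-fold lower. Hoxd9 had 3.49, 3.87, 6.20 and 5.57 TPM in CCD UUO, against 12.0, 10.8, 11.6 and 8.93 TPM in CCD sham. Again the arms did not overlap, and the log2 change was -1.05 (SE 0.20, adjusted p = 0.0142), or 2.07-fold lower.

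Over the 10530 genes tested in that comparison 13% were called, 8.04% as lower and 5% as higher, so 2 of 11 members (both lower) was not far from the share of all genes. Arms that did not overlap were seen in 2 members lower and 0 higher, beside 15% and 6.31% of all genes. The median log2 change over all genes was -0.14. After median-of-ratios rescaling, which moved that median to -0.01, Hoxb7 changed by -0.76 and Hoxd9 by -0.91, and both were still called. Each was also called in all 8 fits that left out 1 replicate, from either CCD library alone, and without the 3 libraries rich in Umod (-0.95 for Hoxb7 and -0.94 for Hoxd9).

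The other 9 members tested in CCD at 3 h were not called. Hoxb6 had 23.5, 35.8, 46.9 and 31.9 TPM in CCD UUO, against 54.7, 54.0, 33.2 and 48.6 TPM in CCD sham (log2 change -0.43, SE 0.24, adjusted p = 0.258). Hoxd3 had 3.39, 3.85, 7.75 and 4.30 TPM in CCD UUO, against 6.86, 12.0, 5.96 and 5.60 TPM in CCD sham (-0.47, SE 0.30, adjusted p = 0.317). In both genes UUO replicate 3 was the highest of its group, and the arms overlapped. The log2 change of Hoxb2 was -0.33 (SE 0.21), and Hoxd10, Hoxa7, Hoxa9 and Hoxb5 had changes above 0, from 0.16 to 0.40, with adjusted p from 0.582 to 0.677. Hoxa9 passed the filter mainly through UUO, so its direction is a description. The median over the 11 members was -0.13, beside -0.14 for all genes.

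Markers of other cell types moved in the same CCD samples. The summed level of 7 principal cell markers was 5418 to 9893 TPM in CCD UUO and 15611 to 18266 TPM in CCD sham at 3 h, and 5 of the 7 were called lower. The sum of 7 intercalated cell markers was 7531 to 11389 TPM in CCD UUO and 8373 to 12712 TPM in CCD sham, with 1 called lower. Red cell markers rose at 4 of 4 loci tested, with sums of 1494 to 7895 TPM in CCD UUO and 25.4 to 1187 TPM in CCD sham. Proximal tubule markers rose in 3 of 6 tested, with sums of 179 to 976 TPM in CCD UUO and 69.1 to 251 TPM in CCD sham. Macrophage markers rose in 3 of 4 tested (61.6 to 92.8 TPM in CCD UUO and 18.5 to 50.6 TPM in CCD sham), and so did the 1 smooth muscle marker tested (6.45 to 38.9 TPM in CCD UUO and 0.45 to 3.72 TPM in CCD sham, summed over 4 markers). No marker of these lists was at 0 in every CCD library. In bulk tubules fewer cells of a type and less RNA per cell cannot be told apart. The part of these markers in the changes of Hoxb7 and Hoxd9 was not tested.

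**Figure D3:**
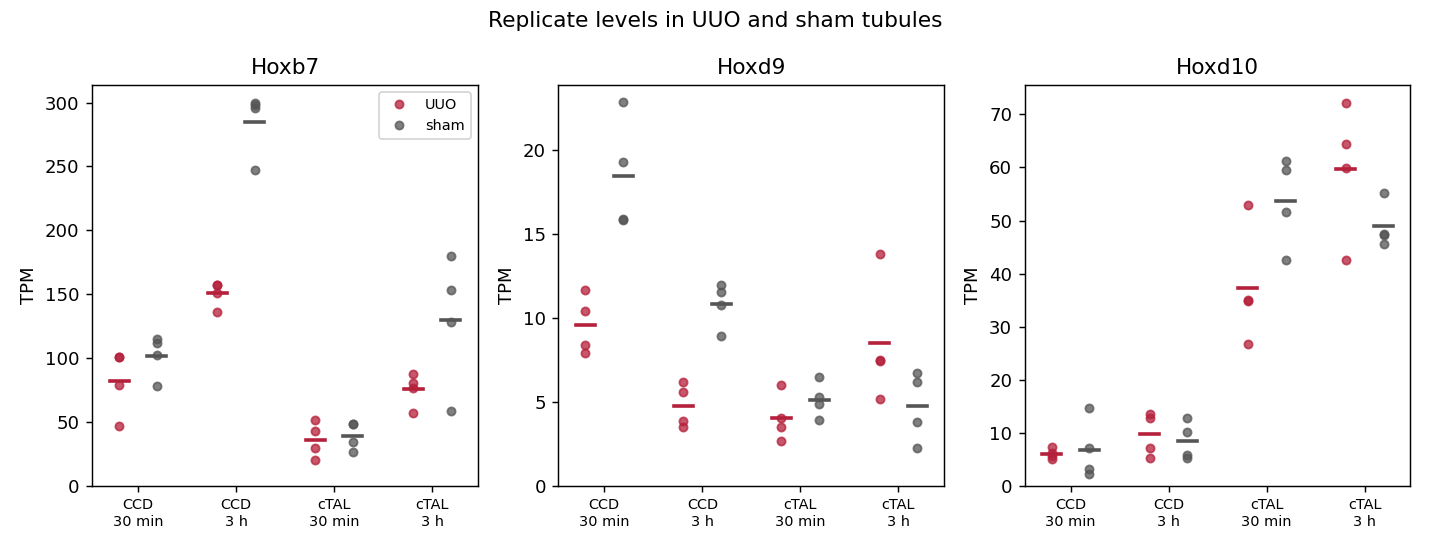
TPM of Hoxb7, Hoxd9 and Hoxd10 in each replicate of the UUO (red) and sham (grey) groups, by segment and time, with bars at the mean of 4 replicates. In CCD at 3 h the UUO points of Hoxb7 and Hoxd9 lie below all sham points, while those of Hoxd10 overlap.

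In CCD at 30 min none of the 11 members tested was called, beside 0.0264% of 11369 genes, or 3 genes (0.0088% higher and 0.0176% lower). By limma 6 of the 11 had an unadjusted p under 0.05, as did 1789 of the 11369 genes. Hoxb8 had 0.24, 0.35, 0.18 and 0.59 TPM in CCD UUO, against 1.07, 2.09, 3.05 and 2.13 TPM in CCD sham (log2 change -0.97, SE 0.20, adjusted p = 0.235). It passed the filter through the sham group alone, so its direction and separation are a description. Hoxd3 had 1.51, 1.51, 3.86 and 4.43 TPM in CCD UUO, against 6.17, 9.08, 8.90 and 7.75 TPM in CCD sham (-1.22, SE 0.30, adjusted p = 0.235). Hoxd9 had 7.92, 10.4, 8.40 and 11.7 TPM in CCD UUO, against 15.9, 19.3, 22.9 and 15.9 TPM in CCD sham (-0.76, SE 0.21, adjusted p = 0.243). In Hoxd3 and Hoxd9, as in Hoxb8, every UUO value lay below every sham value, which was also so for 10.4% of all genes tested. The opposite, every UUO value above every sham value, was seen in 0 members and 0.51% of genes. The sum of the 7 principal cell markers was 5617 to 9881 TPM in CCD UUO and 6794 to 11451 TPM in CCD sham, with none called; their part in these values was not tested. The median change of all genes was -0.31, and it was -0.02 after median-of-ratios rescaling, under which the change became -0.79 for Hoxb8, -0.95 for Hoxd3 and -0.41 for Hoxd9.

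Hoxb6 and Hoxb2 varied most between replicates at 30 min. Hoxb6 had 4.82, 9.34, 34.7 and 34.5 TPM in CCD UUO, against 21.9, 44.2, 78.3 and 67.1 TPM in CCD sham (-1.51, SE 0.64, adjusted p = 0.298). Hoxb2 had 2.96, 6.82, 17.3 and 18.1 TPM in CCD UUO, against 13.6, 23.8, 37.9 and 28.5 TPM in CCD sham (-1.33, SE 0.54, adjusted p = 0.294). UUO replicates 1 and 2 were the low ones in both genes, and replicates 3 and 4 overlapped the lowest sham replicate. Within each number, however, UUO was below sham in 4 of 4 for both genes and for Hoxb7. With the replicate number as a block the adjusted p by limma became 0.0784 for Hoxb6, Hoxb2 and Hoxb8, 0.0826 for Hoxd3, 0.148 for Hoxd9 and 0.329 for Hoxb7, with no call. Hoxb7 had 46.5, 78.7, 101 and 101 TPM in CCD UUO, against 78.4, 115, 112 and 102 TPM in CCD sham (-0.38, SE 0.27, adjusted p = 0.430), and its change was -0.01 after median-of-ratios rescaling. Of the 11 members 10 had a change below 0, as did 9812 of the 11369 genes tested.

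The 2 CCD libraries of a number did not carry these Hox genes alike. In CCD sham at 30 min library 1 exceeded library 2 in all 4 numbers for Hoxb2, Hoxb6, Hoxb8, Hoxd3 and Hoxd9, 5 of the 11 members expressed there, as it did for 16.2% of all genes. Hoxb8 averaged 3.64 TPM in library 1 and 0.52 TPM in library 2 of the sham numbers, and 0.33 and 0.35 TPM in libraries 1 and 2 of the UUO numbers. Hoxd9 averaged 26.2 TPM in library 1 and 10.8 TPM in library 2 of the sham numbers, and 9.07 and 10.2 TPM in UUO. Hoxd3 averaged 11.5 and 4.49 TPM in sham, and 3.26 and 2.40 TPM in UUO. In library 2 the arms of Hoxd9 therefore overlapped, with 7.30, 11.6, 7.99 and 13.7 TPM in UUO and 9.62, 13.4, 11.8 and 8.51 TPM in sham. From library 1 alone Hoxb8 (-1.75, adjusted p = 0.0032), Hoxd3 (-1.62, adjusted p = 0.0071) and Hoxd9 (-1.41, adjusted p = 0.00188) were called lower in UUO by limma, Hoxb8 again having passed through sham alone. From library 2 alone the change of Hoxd3 was -0.82 (adjusted p = 0.513) and that of Hoxd9 -0.11 (adjusted p = 0.836). Hoxb7 differed little between libraries, with 106 and 97.6 TPM in sham. The labels do not say how the 2 libraries of a number differ.

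**Figure D4:**
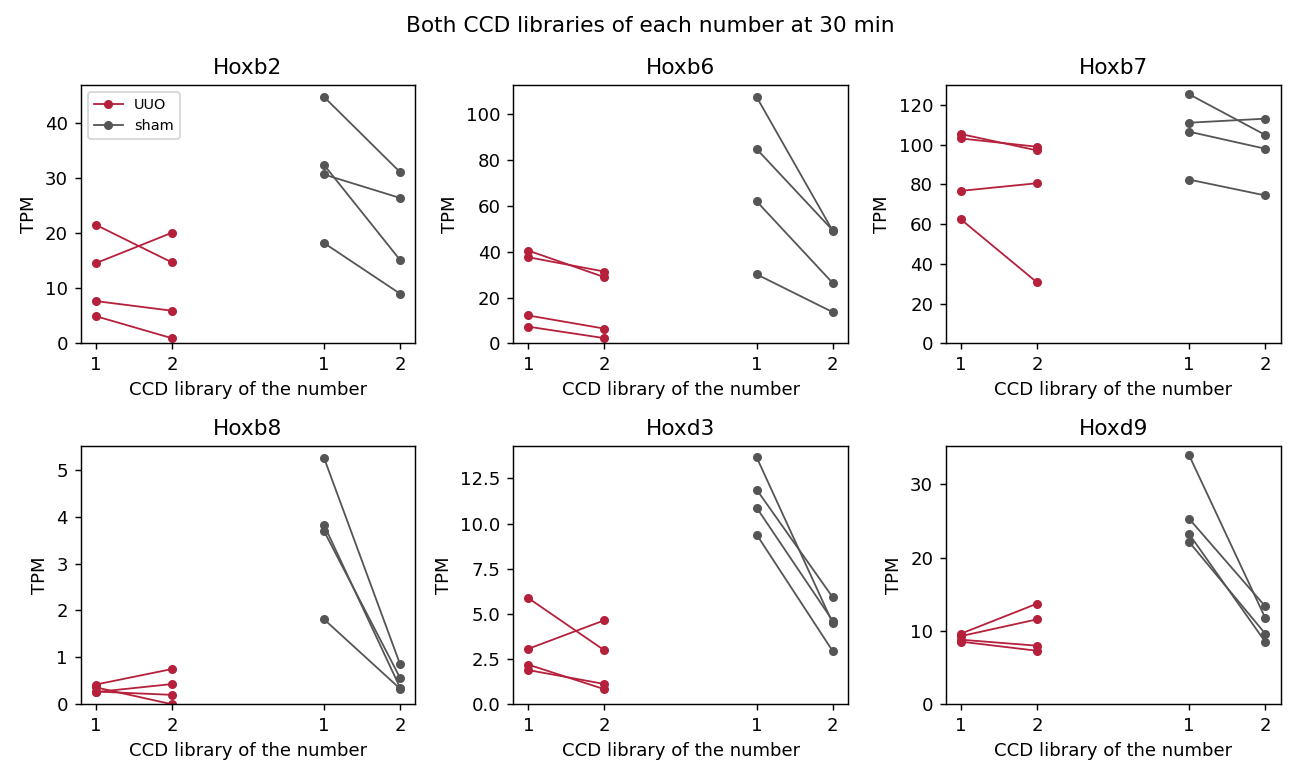
TPM of 6 Hox genes in both CCD libraries of each number at 30 min, UUO in red on the left and sham in grey on the right; lines join the libraries of a number. In the sham numbers library 1 exceeds library 2 in all 4 numbers for each gene drawn except Hoxb7.

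In cTAL at 30 min none of 10 members tested was called, beside 0.0091% of 10993 genes, or 1 gene. The unadjusted p by limma was under 0.05 in 250 of the 10993 genes and in 2 of the 10 members. Those were Hoxd10, with 34.8, 34.9, 53.0 and 26.7 TPM in cTAL UUO against 42.6, 51.6, 59.5 and 61.3 TPM in cTAL sham (log2 change -0.54, SE 0.21), and Hoxa7, with 6.35, 3.76, 5.41 and 4.48 TPM against 7.73, 5.17, 7.89 and 10.96 TPM (-0.56, SE 0.24). The arms of both overlapped. The log2 change was -0.30 (SE 0.24) for Hoxd9 and -0.18 (SE 0.31) for Hoxb7. Hoxc10 stayed at 8.44 to 10.1 TPM in UUO and 8.20 to 10.3 TPM in sham, with a log2 change of -0.01 (SE 0.15).

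In cTAL at 3 h none of 13 members tested was called, beside 11.7% of 10023 genes, with 7.64% lower and 4.06% higher. By limma 2 of the 13, Hoxc10 and Hoxb4, had an unadjusted p under 0.05, as did 2845 of the 10023 genes. Hoxc10 had 6.29, 4.47, 9.19 and 4.36 TPM in cTAL UUO, against 8.26, 10.5, 10.9 and 13.8 TPM in cTAL sham (log2 change -0.78, SE 0.29, adjusted p = 0.110). Hoxb4 had 0.21, 1.51, 1.01 and 0.80 TPM in cTAL UUO, against 3.25, 1.78, 1.64 and 1.87 TPM in cTAL sham (-0.76, SE 0.30, adjusted p = 0.131), and passed the filter mainly through sham, so that its direction is a description. The arms of Hoxb4 did not overlap, as for 14.1% of genes in the lower direction (5.68% in the higher direction, with 0 members), while UUO replicate 3 of Hoxc10 overlapped the sham range.

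In cTAL at 3 h the UUO replicates had 56.8, 87.4, 76.7 and 80.9 TPM of Hoxb7, against 180, 154, 128 and 58.9 TPM in the sham replicates. The log2 change of -0.68 had an SE of 0.31 and an adjusted p of 0.180 by limma. Sham replicate 4 alone lay within the UUO range, and without it Hoxb7 was called lower (-1.02, adjusted p = 0.0197). That replicate was also the lowest of cTAL sham for Hoxb2 (3.05 TPM, the others 10.8 to 19.2), Hoxb6 (2.17 TPM, the others 10.2 to 21.1), Hoxc6 (0.71 TPM) and Hoxa9 (0.74 TPM). For Hoxd10 it was close to the others (45.6 TPM, the others 47.3 to 55.2) and for Hoxc10 the highest (13.8 TPM), and its thick limb marker sum of 61373 TPM was the highest of the group. In cTAL UUO, replicate 1 was the lowest for Hoxb2 (3.05 TPM), Hoxb6 (3.53 TPM), Hoxa9 (0.66 TPM) and Hoxc6 (0.65 TPM), and the highest for Hoxd10 (72.1 TPM). The endothelial marker sum was 311, 213, 111 and 49.0 TPM in cTAL sham replicates 1 to 4, and 44.8 to 79.55 TPM in cTAL UUO. With obstruction 2 of 3 endothelial and 1 of 4 macrophage markers tested were called lower, and 3 of 6 proximal tubule markers higher. The part of these markers in the Hox values was not tested.

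**Figure D5:**
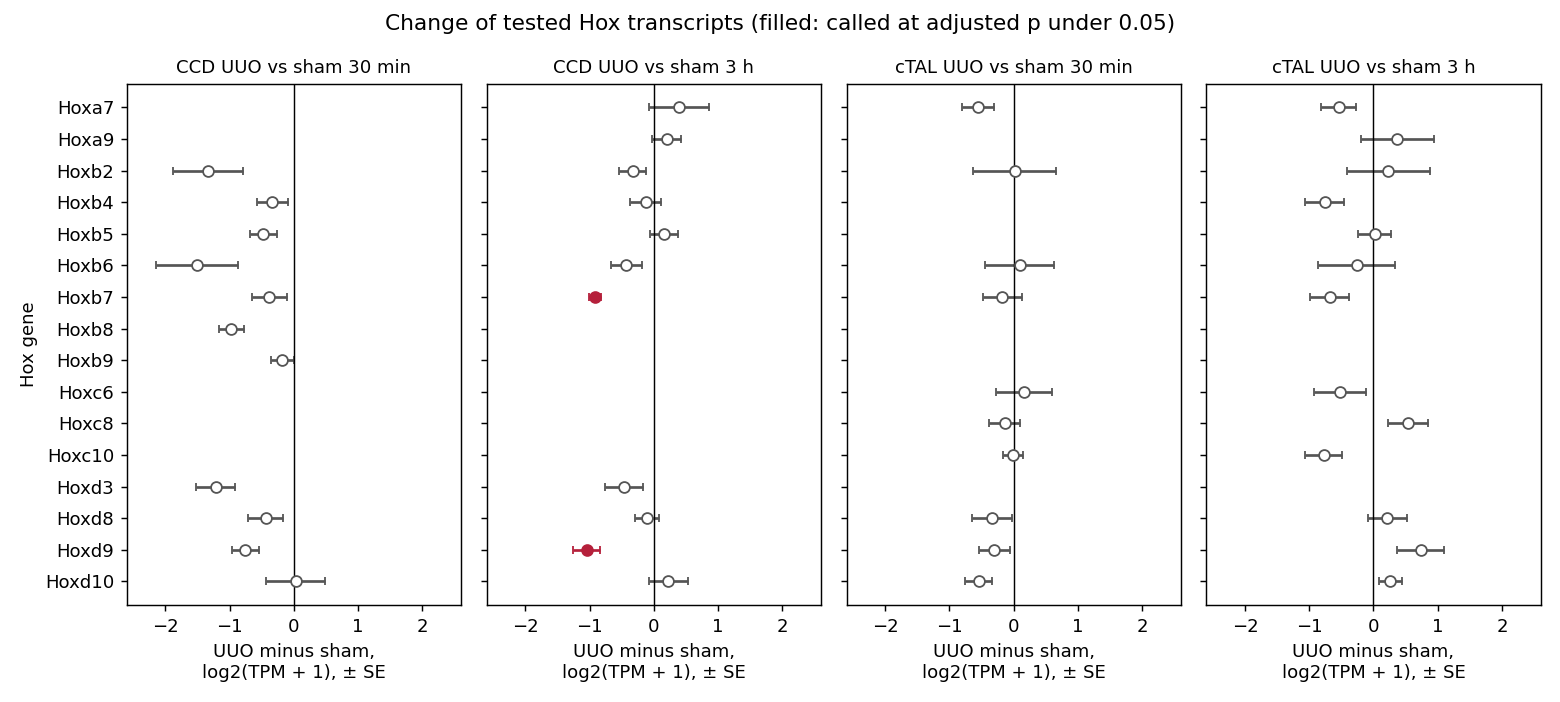
Log2(TPM + 1) change, UUO minus sham, with its standard error for each Hox member tested in the 4 comparisons; filled red points passed an adjusted p of 0.05 over all genes. Hoxb7 and Hoxd9 in CCD at 3 h are the filled points.

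Whether the response differed between segments was tested on CCD minus cTAL within each number, UUO against sham. At 3 h none of 14 members was called, beside 1.08% of 11515 genes. The unadjusted p by limma was under 0.05 in 1644 of the 11515 genes and in 1 member. That was Hoxd9, whose change was -1.05 in CCD and 0.73 in cTAL, where it had 7.52, 7.41, 13.8 and 5.20 TPM in UUO and 2.26, 6.71, 6.16 and 3.79 TPM in sham. The difference was -1.78 (SE 0.40, adjusted p = 0.0684), and over the alternatives run it stayed between -1.48 and -2.05 without a call (-1.67 without the 3 libraries rich in Umod). Hoxc10 (1.00, SE 0.48, adjusted p = 0.387) and Hoxc6 (0.68, SE 0.38, adjusted p = 0.459) came next by p. For Hoxb7 the difference was -0.23 (SE 0.33, adjusted p = 0.811), so its change in CCD was not shown to differ from that in cTAL. At 30 min none of 15 members was called, beside 0% of 12343 genes. The unadjusted p by limma was under 0.05 in 1817 of the 12343 genes and in 5 members. Among these 5 the smallest p was that of Hoxb8 (-1.09, SE 0.22, adjusted p = 0.0684), a member above 1 TPM in CCD sham alone. Next were Hoxd3 (-1.12, SE 0.29, adjusted p = 0.114) and Hoxb6 (-1.60, SE 0.58, adjusted p = 0.249). Without UUO replicate 3, Hoxd3, Hoxb6 and Hoxb2 were called. In that test the median over all genes was -0.23.

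The partner, regulator, flanking and segment factor lists were also followed with obstruction. At 30 min no gene of the 5 lists was called in either segment. In CCD at 3 h 0 of 4 partners, 1 of 24 regulators and 1 of 12 flanking genes were called, both lower, beside 8.04% of all genes. These were Dpy30, a subunit of H3K4 methyltransferase complexes (-0.38), and Cbx5, the heterochromatin protein HP1 alpha whose gene lies beside HoxC (-0.47). In cTAL at 3 h 0 of 3 partners, 2 of 22 regulators, 1 of 12 flanking genes and 1 of 7 segment factors were called lower. Of all genes 7.64% were lower there. Called higher was 1 of the 12 flanking genes, beside 4.06% of all genes. The lower ones were Dpy30 (-0.52), Men1 of the same complexes (-1.19), Skap1 (-1.14) and Tfap2b (-1.56). The higher one was Hnrnpa1, another neighbour of HoxC (0.69). Of these 7 calls, only that of Tfap2b was kept in all 8 fits that left out 1 replicate: Dpy30 lost its call in 6 of 8 in CCD and in 4 of 8 in cTAL, Men1 in 7, Skap1 in 6, and Cbx5 and Hnrnpa1 in 2 each. No gene of the Hox11 kidney programme passed the filter in CCD.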

How the data were processed

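RNA of microdissected rat CCD and cTAL was sequenced, in 24 libraries per time. Per the labels' protocols polyA RNA was amplified with a SMARTer V4 Ultra Low kit and made into Nextera XT libraries. The tools and build named in the submitters' processing notes are RSEM 1.3.3, STAR 2.7.3 and Rnor_6.0. The values deposited by the authors are TPM per gene, in a table for each time, and depth is unknown. Another 8 whole-kidney samples were not analysed here. Members and gene lists were chosen with earlier results of these data known.

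From the TPM, log2(TPM + 1) was computed, which understates changes near 1 TPM. A CCD replicate is the average of its 2 libraries on that scale. Genes that reached 1 TPM in 4 or more of the replicates compared were tested with limma 3.58.1 (trend) in R 4.3.3, Benjamini-Hochberg adjustment ran over all genes tested, and genes under an adjusted p of 0.05 were called. The code was tested on simulated data. Sham CCD and cTAL of a number were read as 1 animal and blocked; the smallest correlation of deviations over pairs was 0.27 at 30 min and 0.062 at 3 h. UUO and sham were fitted without a block. At 30 min in CCD same-numbered UUO and sham replicates deviated together (correlations 0.115 to 0.229, from the data and not the labels). Nothing further says that replicates came from separate animals, so p-values measure the spread between these samples.

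Genes were matched between tables by identifier, since names differ: the Hoxa7 and Hoxa9 loci used here carry other names in the 3 h table. Named genes were every member expressed in sham, every called member of a UUO or segment comparison or the 3 with the smallest p where fewer than 3 were called, Hoxb7, and up to 4 called genes of each list; others were chosen after their values were seen. Promoter sequences and gene order are from RefSeq (GRCr8). Figures were drawn with matplotlib 3.10.9 in Python 3.11.15. Alternatives covered the pseudocount, filters, scaling, library, averaging, trend, block and each replicate left out. The segment factor list in CCD at 3 h is not reported here.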

Additional observations from a re-analysis of the deposited data

Results flagged for a closer look

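Of the 90 sets of 4 replicates with a mean of at least 1 TPM, 3 held a replicate far from the others by Dixon's test, which marks about 1 in 20 sets by chance. Hoxb2 was 14.8 TPM in cTAL UUO replicate 4 at 30 min, while the other replicates had 1.39 to 3.35 TPM. Hoxb6 in that replicate (12.2 TPM) was also the highest of its group. Hoxb4 was 3.25 TPM in cTAL sham replicate 1 at 3 h, the replicate with 361 TPM of Aqp2, while the others had 1.64 to 1.87 TPM. CCD sham at 3 h had 1.34 to 2.85 TPM of Hoxb4. Hoxb7 was 247 TPM in CCD sham replicate 3 at 3 h, 1 of the numbers with a library rich in Umod, while the others had 295 to 300 TPM. In replicate 3 the library rich in Umod had 239 TPM of Hoxb7 and the other 255 TPM. In replicate 1 these values were 255 and 336 TPM. The part of these transcripts in the Hox values was not tested.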

How the results depend on the processing

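The counts of called members in CCD at 3 h (2), in cTAL at 30 min (0) and in the segment difference at 3 h (0) were the same in value under all alternatives run. In sham at 30 min the 14 calls became 8 at a minimum of 5 TPM, the 9 higher calls 5 and the 5 lower calls 3, where fewer genes were tested; with no filter the lower calls were 9 at 30 min and 7 at 3 h, against 5 and 4. From CCD library 1 alone 3 members were called in CCD at 30 min and 3 in the segment difference at 30 min, where the mean of TPM gave 1, against 0. Without 1 replicate, for which the filter was loosened to 3 replicates after seeing the data, gave 14 sham calls at 30 min (9 higher, 5 lower), 7 to 11 at 3 h (4 to 5 higher, 3 to 6 lower; 7 without sham replicate 3, and 11 without sham replicate 4, where Hoxc6 and Hoxc8 were also called), 0 in CCD at 30 min, 2 in CCD at 3 h, 0 in cTAL at 30 min, 0 to 1 in cTAL at 3 h, and 0 to 3 (30 min) and 0 (3 h) in the segment difference. Signs turned only for members that were not called. Leaving out 1 replicate gave, in sham at 3 h, -0.24 to 0.15 for Hoxb4 (above 0 without sham replicates 1 or 4, against -0.07 with all) and -0.028 to 0.11 for Hoxd8 (below 0 without sham replicate 4, against 0.03), which was -0.22 with median-of-ratios and -0.29 with quantile scaling. For Hoxb7 it gave -0.37 to 0.070 in cTAL at 30 min (above 0 without UUO replicate 1, against -0.18), -0.40 to 0.023 in the segment difference at 30 min (above 0 without sham replicate 2, against -0.20; 0.082 with median-of-ratios scaling) and -0.40 to 0.14 in the segment difference at 3 h (above 0 without sham replicate 4, against -0.23). The causes of the other shifts were not tested.

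With the replicate number as a block, UUO against sham gave 0 calls in CCD and 0 in cTAL at 30 min, and 2 in CCD and 0 in cTAL at 3 h, and without the block the sham segments gave 14 and 9 calls, so the block changed no count. Same-numbered UUO and sham replicates did not deviate together in the other 3 comparisons (smallest correlation -0.233). Left out after seeing the data, library 2 of CCD UUO replicate 2 at 30 min (the library with the fewest genes) and the 3 CCD libraries above 5000 TPM of Umod at 3 h kept the UUO counts at 0 and 2. Members near 1 TPM are limited by depth, which is unknown.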
